A study of Homo sapiens with 4 samples.

Results

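The genes described here encode the ion carriers of 4 solute carrier families, SLC4, SLC9, SLC12 and SLC26, which move bicarbonate, chloride, protons, sodium, potassium and sulfate across membranes. They were taken by symbol from the array's annotation, and 37 of the 18377 genes with a probe of exactly 1 symbol belonged to these families: 10 to SLC4, 10 to SLC9, 8 to SLC12 and 9 to SLC26. Other genes of these families were not analysed here. RNA came from Huh7, an established human hepatocellular carcinoma line, parted by flow cytometry into CD133+ and CD133- cells in one sort and into ALDH+ and ALDH- cells in another. CD133 is the surface protein encoded by PROM1, and ALDH stands for aldehyde dehydrogenase activity; both are used to enrich cells with stem-like features, and the series frames its question as cancer stem cells against the other tumour cells. All 4 fractions come from this line, no treatment is given for any of them, and the ALDH assay is not named in the labels. Each fraction was measured on 1 array, so no difference below has a replicate check or a p-value. In such bulk RNA, fewer cells that express a gene and less RNA per cell cannot be told apart.

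The values are log2 expression values, 1 unit being a 2-fold step, and a difference is the positive minus the negative fraction of a sort. The expression floor is the median of all values on the 4 arrays, 4.98. A gene counted as above the floor in a sort where the brighter of its pair of arrays reached it. Median log2 values per array lay between 4.92 and 5.04, and the correlation over all probes between arrays ran from 0.982 to 0.989. All 7 hepatocyte markers measured were above the floor on every array, with means of 10.3 to 10.4 per array, but single markers moved in both directions: TTR differed by 0.99 (CD133) and -0.58 (ALDH), APOA1 by -0.78 and 0.25, and APOB by -0.69 and -0.20. PROM1 was at 9.0 in CD133+ and 5.32 in CD133- cells, and at 7.11 in ALDH+ and 8.39 in ALDH- cells. In the ALDH sort ALDH1A1 differed by 0.04 and ALDH2 by 0.10. ALDH1A3 differed by 0.45, short of 1.5-fold, with ALDH- cells under the floor at 4.69. These small differences do not check the ALDH labels.

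Bicarbonate is the main buffer of body fluids, and cells set their pH by trading it for chloride or taking it up with sodium (the SLC4 and many SLC26 carriers), and by trading protons for sodium (the SLC9 exchangers). The SLC12 cotransporters carry chloride with sodium or potassium and set cell volume and cell chloride. In the gut, chloride and bicarbonate exchange by SLC26A3 and sodium and proton exchange by SLC9A3 at the brush border absorb salt, and loss of SLC26A3 causes congenital chloride diarrhoea. In the liver, chloride and bicarbonate exchange by SLC4A2 adds bicarbonate to bile.

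The DNA before the start sites of 4 members is shown because these members carry the contrasts that follow: SLC26A3 and SLC26A2, which differed in both sorts, SLC4A7, which differed in the ALDH sort, and SLC4A2, which was nearly level over the 4 arrays. Each sequence is the 250 bases before an annotated start, from RefSeq on GRCh38.p14, written 5′ to 3′ along the gene. Capitals mark matches to the motifs searched on both strands. The letters GGGCGG stood for a GC box, the site of factors found at many promoters of widely used genes. The letters TATAAA stood for the box that fixes the start of many regulated genes. The letters TTTATG stood for the site of the intestinal CDX factors, and CAAAGTCCA for that of the liver factor HNF4. For HNF1, a factor of liver and gut, the match is the run in capitals in the SLC26A3 window, with any base allowed at the seventh place. The windows are chr7:107803224-107803473 on the minus strand for SLC26A3, chr5:149960508-149960757 on the plus strand for SLC26A2, chr3:27484385-27484634 on the minus strand for the first listed start of SLC4A7 and chr7:151062297-151062546 on the plus strand for the third of the 4 listed starts of SLC4A2.
SLC26A3: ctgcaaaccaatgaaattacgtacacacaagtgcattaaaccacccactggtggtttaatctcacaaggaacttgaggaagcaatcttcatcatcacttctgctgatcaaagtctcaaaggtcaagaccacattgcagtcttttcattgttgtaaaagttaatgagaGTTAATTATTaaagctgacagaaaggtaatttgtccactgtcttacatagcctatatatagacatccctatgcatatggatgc
SLC26A2: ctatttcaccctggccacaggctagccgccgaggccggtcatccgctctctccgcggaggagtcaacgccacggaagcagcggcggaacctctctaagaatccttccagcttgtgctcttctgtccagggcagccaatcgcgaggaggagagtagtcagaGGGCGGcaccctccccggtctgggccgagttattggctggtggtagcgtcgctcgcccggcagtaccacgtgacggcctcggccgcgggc
SLC4A7: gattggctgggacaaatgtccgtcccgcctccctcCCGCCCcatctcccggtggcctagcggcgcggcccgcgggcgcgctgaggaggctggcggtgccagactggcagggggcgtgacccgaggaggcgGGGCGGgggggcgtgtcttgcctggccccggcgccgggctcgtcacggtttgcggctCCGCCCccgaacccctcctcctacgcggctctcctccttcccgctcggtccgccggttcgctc
SLC4A2: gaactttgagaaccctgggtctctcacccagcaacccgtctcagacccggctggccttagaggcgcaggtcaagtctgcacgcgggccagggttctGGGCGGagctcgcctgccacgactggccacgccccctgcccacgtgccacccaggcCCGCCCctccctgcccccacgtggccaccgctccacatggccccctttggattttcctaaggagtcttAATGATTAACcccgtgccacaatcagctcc
The SLC26A3 window held the HNF1 letters from 83 to 74 bases before the start and none of the other motifs, and 37.6% of its bases were G or C. The windows of SLC26A2 and SLC4A7 were G and C rich, at 66.0% and 76.0%, and held 1 and 3 GC boxes and none of the other motifs. The other listed start of SLC4A7, not printed, had a window with 34.8% G or C, a match to the CDX letters on the opposite strand and no GC box. The SLC4A2 window, chosen because it is 1 of the 2 that hold the HNF1 letters, had them on the opposite strand from 30 to 21 bases before the start, with 2 GC boxes. The first listed start of SLC4A2 had none of the motifs and the second had GC boxes alone. Matches of different motifs did not overlap in these 4 windows.

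RefSeq start sites were found for 32 of the 37 members, in 48 windows. The HNF1 letters were in 3 of these windows, those of SLC26A3 and 2 overlapping windows of SLC4A2 that share 1 match, beside 0.296% of all 35116 windows of the same length. GC boxes were in 41.7% of the members' windows and 42.6% of all windows, TATA boxes in 12.5% and 10.7%, and CDX letters in 8.33% and 9.64%. The HNF4 letters were in none of the 48 windows and in 0.325% of all windows. A match describes the letters only.

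Most of the exchanger genes hardly differed between the fractions, and the large differences were those of 2 SLC26 genes. SLC26A3 and SLC26A2 were higher in CD133+ than in CD133- cells and lower in ALDH+ than in ALDH- cells. The bicarbonate importer SLC4A7 was lower in ALDH+ cells, with little difference in the CD133 sort. Of the 37 members, 16 were at or above the floor on every array, 2 (SLC26A3 and SLC9A3) on some of them, and 19 on none, a share of 51.4% beside 33.7% of all genes. Differences of those 19 are differences between dim probes and are uncertain.

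**Figure D1:**
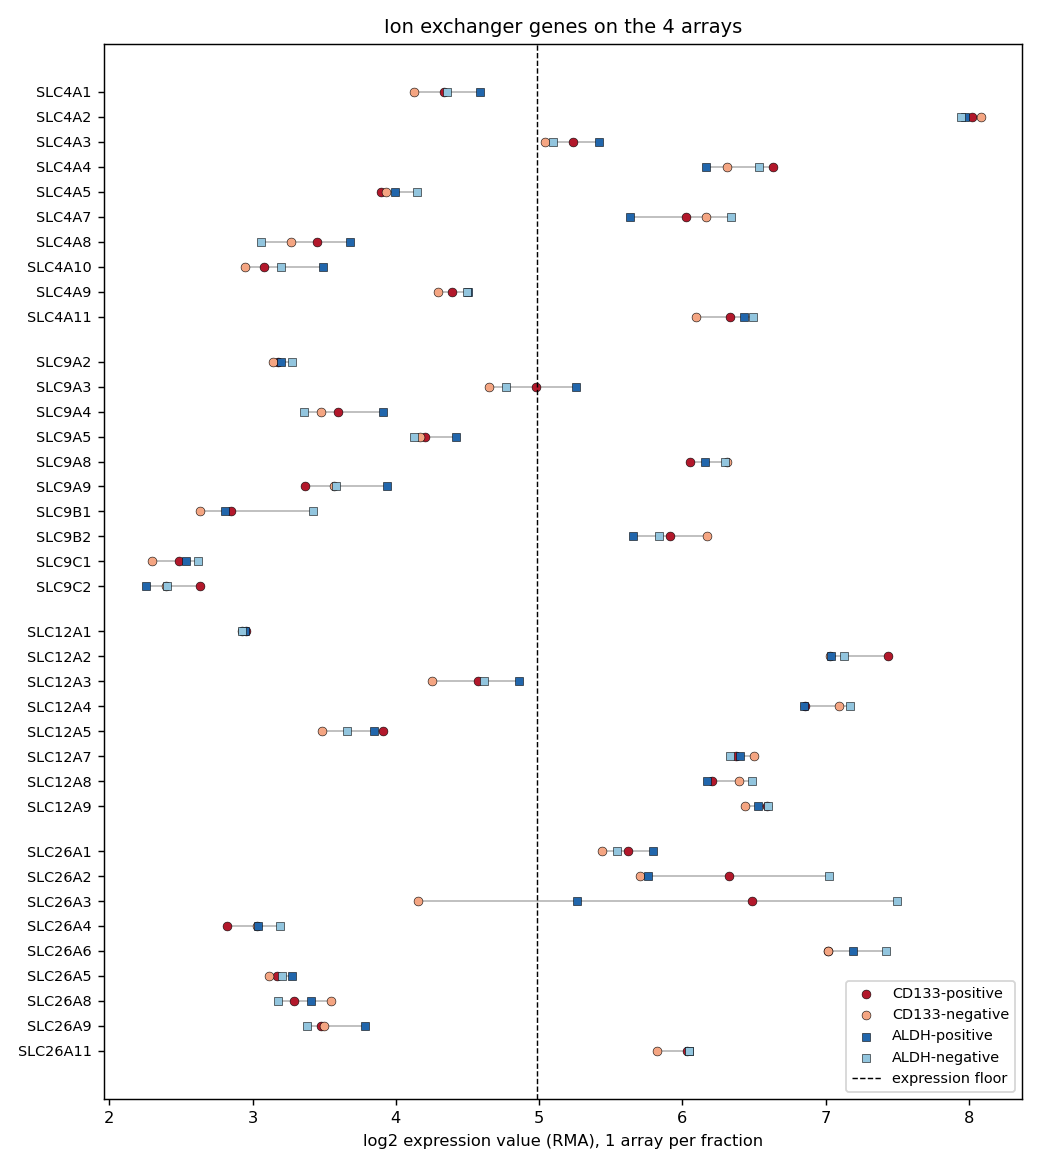
Log2 expression values (x axis) of the 37 exchanger genes (rows, by family) on the 4 arrays, with 1 point per array and the expression floor of 4.98 as a dashed line. Points of most genes lie close together, while those of SLC26A3 run from 4.15 to 7.5 and those of SLC26A2 from 5.71 to 7.03.

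At a 2-fold difference, 1 of 17 members above the floor was higher in CD133+ cells, beside 0.716% of all 11591 genes above the floor in that sort, and none was lower, beside 0.164%. In the ALDH sort 2 of 18 members above the floor were lower in ALDH+ cells, beside 1.3% of 11879 genes, and none was higher, beside 0.278%. At 1.5-fold the members were 2 higher and 0 lower in the CD133 sort, beside 2.74% and 1.89% of all genes, and 0 higher and 3 lower in the ALDH sort, beside 4.15% and 6.6%. These are counts of 1 to 3 genes, with no test. The median difference of all 37 members was 0.12 in the CD133 sort, beside -0.01 over all genes measured, and -0.0015 in the ALDH sort, beside 0.03. Over the members above the floor the medians were 0.16 and -0.11, beside -0.04 and -0.01 over all genes above it. SLC26A2 and SLC26A3 were then left out, after the data were seen. The medians above the floor became -0.0002 over 15 members (7 higher, 8 lower) and -0.08 over 16 members (5 higher, 11 lower). Of all genes above the floor, 42.9% were higher in CD133+ cells and 48.5% in ALDH+ cells. Next to the 2-fold line, the first member short of it was SLC26A2 in the CD133 sort (0.62) and SLC4A7 in the ALDH sort (-0.71).

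SLC26A3, also known as DRA, is the apical exchanger that takes up chloride for bicarbonate in the colon and ileum. Its log2 value was 6.48 in CD133+, 4.15 in CD133-, 5.26 in ALDH+ and 7.5 in ALDH- cells. The lowest array was that of CD133- cells, the single one under the floor, and the highest was that of ALDH- cells. SLC26A3 was 5.02-fold higher in CD133+ than in CD133- cells (2.33 on the log2 scale), or at least 2.83-fold with the value of CD133- cells raised to the floor. It was 4.72-fold lower in ALDH+ than in ALDH- cells (-2.24). By size, it stood 7th from the top of 11591 genes in the CD133 sort, or 19th with all values under the floor raised to it, and 1st from the bottom of 11879 genes in the ALDH sort.

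Of the fractions low in SLC26A3, ALDH+ cells stood above CD133- cells by 1.11 on the log2 scale, or by 0.28 with the value of CD133- cells raised to the floor. Between the negative fractions, ALDH- cells had at least 5.72-fold more SLC26A3 signal than CD133- cells, whose value was raised to the floor for this (10.2-fold as measured). Between the positive fractions, CD133+ cells had 2.33-fold more than ALDH+ cells. These gaps set arrays of different sorts side by side, and the sort and the fraction cannot be told apart in them.

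The other chloride and bicarbonate exchangers of the SLC26 family measured here had small differences. SLC26A6, which trades chloride for bicarbonate, oxalate or formate in gut and kidney, was at 7.02 in CD133+, 7.02 in CD133-, 7.19 in ALDH+ and 7.42 in ALDH- cells. Both CD133 fractions had the same value to 2 decimals, and the ALDH sort differed by -0.23. SLC26A4, the iodide and chloride exchanger pendrin of thyroid and inner ear, was under the floor on every array, between 2.82 and 3.19.

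SLC26A2 is a widely expressed sulfate transporter, needed for the sulfation of cartilage proteoglycans. Its log2 value was 6.33 in CD133+, 5.71 in CD133-, 5.76 in ALDH+ and 7.03 in ALDH- cells, above the floor on every array. CD133- and ALDH+ cells were low and nearly level, and ALDH- cells were highest. SLC26A2 was 1.54-fold higher in CD133+ than in CD133- cells (0.62) and 2.40-fold lower in ALDH+ than in ALDH- cells (-1.27). It stood 257th from the top of the genes above the floor in the CD133 sort and 50th from the bottom in the ALDH sort.

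SLC26A1, the sulfate and oxalate exchanger of liver and kidney, was at 5.62 in CD133+, 5.44 in CD133-, 5.79 in ALDH+ and 5.55 in ALDH- cells. Its differences of 0.18 and 0.25 were small and, unlike those of SLC26A2, pointed the same way in both sorts. SLC26A11, a carrier of sulfate and chloride, was above the floor on every array and differed by 0.21 in the CD133 sort and by -0.0015 in the ALDH sort. SLC26A5, the motor protein prestin of outer hair cells, the testis protein SLC26A8 and the chloride carrier SLC26A9 of stomach and airway were under the floor on every array, with differences between -0.25 and 0.40.

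**Figure D2:**
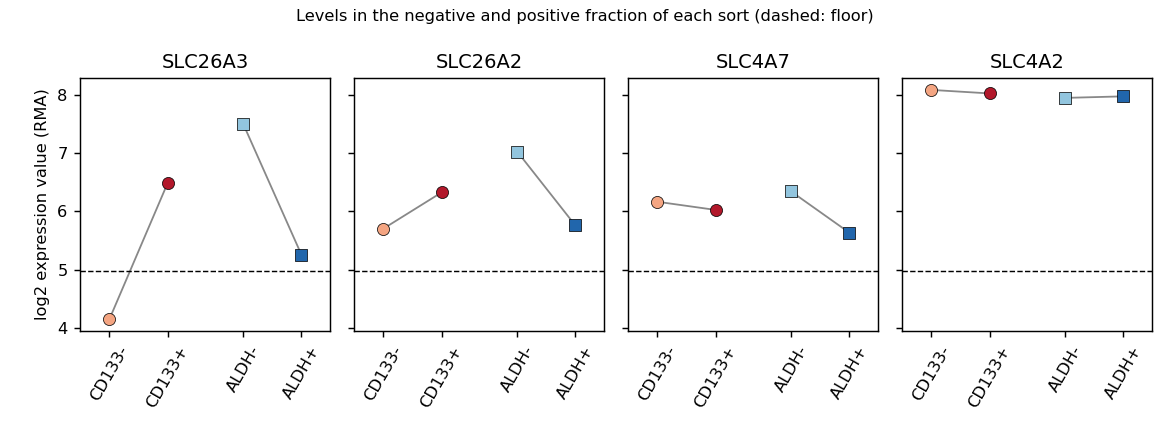
Log2 expression values (y axis) of SLC26A3, SLC26A2, SLC4A7 and SLC4A2 in the negative and positive fraction of each sort (x axis), 1 array per point, with a line joining the fractions of a sort and the floor dashed. SLC26A3 and SLC26A2 go up from CD133- to CD133+ and down from ALDH- to ALDH+ cells, while SLC4A2 stays between 7.94 and 8.08.

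In the SLC4 family the anion exchanger SLC4A2, known as AE2, was at 8.02 in CD133+, 8.08 in CD133-, 7.97 in ALDH+ and 7.94 in ALDH- cells. Its 4 arrays spanned 0.14, the narrowest span among the 18 members above the floor on any array. SLC4A3, the anion exchanger of heart and brain, lay just above the floor, between 5.04 and 5.42, a span of 0.38, and differed by 0.19 and 0.32. SLC4A1, the band 3 protein of red cells, was under the floor on every array and spanned 0.46.

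Among the sodium bicarbonate cotransporters, 2 of 5 were above the floor. SLC4A7, which brings in bicarbonate with sodium and is known as NBCn1, was at 6.03 in CD133+, 6.17 in CD133-, 5.64 in ALDH+ and 6.34 in ALDH- cells. The ALDH+ array was lowest and the other 3 lay within 0.32 of each other. SLC4A7 was 1.63-fold lower in ALDH+ than in ALDH- cells (-0.71) and differed by -0.14 in the CD133 sort. It stood 491st from the bottom of 11879 genes in the ALDH sort, where 6.6% of genes were at least 1.5-fold lower.

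SLC4A4, the electrogenic sodium bicarbonate cotransporter NBCe1, was at 6.63 in CD133+, 6.31 in CD133-, 6.17 in ALDH+ and 6.53 in ALDH- cells. Its differences of 0.32 and -0.37 had the signs of SLC26A3 but stayed short of 1.5-fold. SLC4A5, SLC4A8 and SLC4A10, carriers of the same kind, were under the floor on every array. SLC4A8 differed by 0.62 in the ALDH sort at log2 values of 3.68 and 3.06, a gap between dim probes. SLC4A11, a carrier of the corneal endothelium, was at 6.34 in CD133+, 6.09 in CD133-, 6.43 in ALDH+ and 6.49 in ALDH- cells. SLC4A9 was under the floor on every array, between 4.29 and 4.50.

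Sodium and proton exchangers were mostly dim. Of 10 SLC9 genes, 7 were under the floor on every array, among them SLC9A2, SLC9A4 and SLC9A5 of the cell surface, SLC9A9 of endosomes, SLC9B1, SLC9C1 and SLC9C2. SLC9A3, the brush border exchanger NHE3 that absorbs sodium in gut and kidney, was at 4.98 in CD133+, 4.65 in CD133-, 5.26 in ALDH+ and 4.77 in ALDH- cells. It lay just under the floor in CD133+ cells and reached it only in ALDH+ cells, where it was higher than in ALDH- cells by 0.49, or by 0.27 with ALDH- cells raised to the floor. In the ALDH sort SLC9A3 had the sign opposite to that of SLC26A3, its partner in salt uptake in the gut.

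SLC9A8, an exchanger of the Golgi and of apical membranes, was at 6.05 in CD133+, 6.31 in CD133-, 6.16 in ALDH+ and 6.29 in ALDH- cells. SLC9B2, a sodium and proton antiporter found in osteoclasts and other cells, was at 5.91 in CD133+, 6.17 in CD133-, 5.65 in ALDH+ and 5.84 in ALDH- cells. Both were a little lower in each positive fraction, with differences of -0.26 and -0.26 in the CD133 sort and of -0.13 and -0.19 in the ALDH sort, all short of 1.5-fold.

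No SLC12 gene differed 1.5-fold in either sort. SLC12A2, the sodium, potassium and chloride importer NKCC1, was at 7.44 in CD133+, 7.03 in CD133-, 7.04 in ALDH+ and 7.13 in ALDH- cells. The CD133+ array stood above the other 3, and the difference in the CD133 sort was 0.40. The potassium and chloride exporter SLC12A4, known as KCC1, was at 6.86 in CD133+, 7.09 in CD133-, 6.85 in ALDH+ and 7.17 in ALDH- cells. It was lower in both positive fractions, by differences of -0.23 and -0.32, as was SLC12A8 (-0.19 and -0.31). SLC12A7, another potassium and chloride exporter, spanned 0.16 over the 4 arrays, and SLC12A9 likewise 0.16. The kidney cotransporters SLC12A1 and SLC12A3 and the neuronal exporter SLC12A5 were under the floor on every array.

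**Figure D3:**
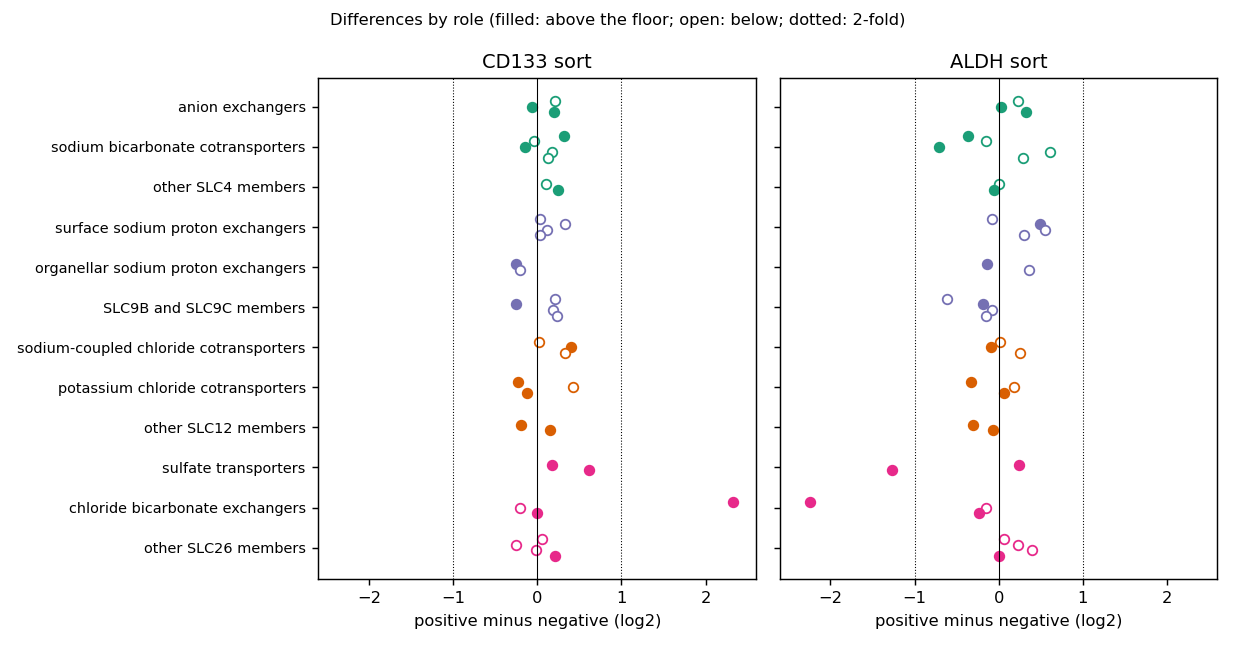
Positive minus negative fraction on the log2 scale (x axis) for each exchanger gene, grouped by role (rows), in the CD133 sort (left) and the ALDH sort (right). Filled points are above the floor in that sort, open points are below it, and dotted lines mark 2-fold. Past 2-fold lie SLC26A3 in both panels (2.33 and -2.24) and SLC26A2 in the ALDH panel (-1.27).

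The sorts have no array in common, so their differences were set side by side. Among the 17 members above the floor in both sorts, 7 were higher in CD133+ and lower in ALDH+ cells by any amount, 2 the reverse, 2 higher in both and 6 lower in both. A share of 21.9% of the 11293 genes above the floor in both sorts was higher in CD133+ and lower in ALDH+ cells. Of the same genes, 26.6% were the reverse, 21.1% higher in both and 30.4% lower in both. At 1.5-fold in both sorts, 2 members were opposite, SLC26A3 and SLC26A2, and none agreed, beside 1.39% of all genes that were opposite. At 2-fold in both, SLC26A3 was the 1 opposite member, beside 0.425% of all genes. The median span over the 4 arrays was 0.39 for the 18 members above the floor on any array and 0.46 for all 12177 such genes.

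**Figure D4:**
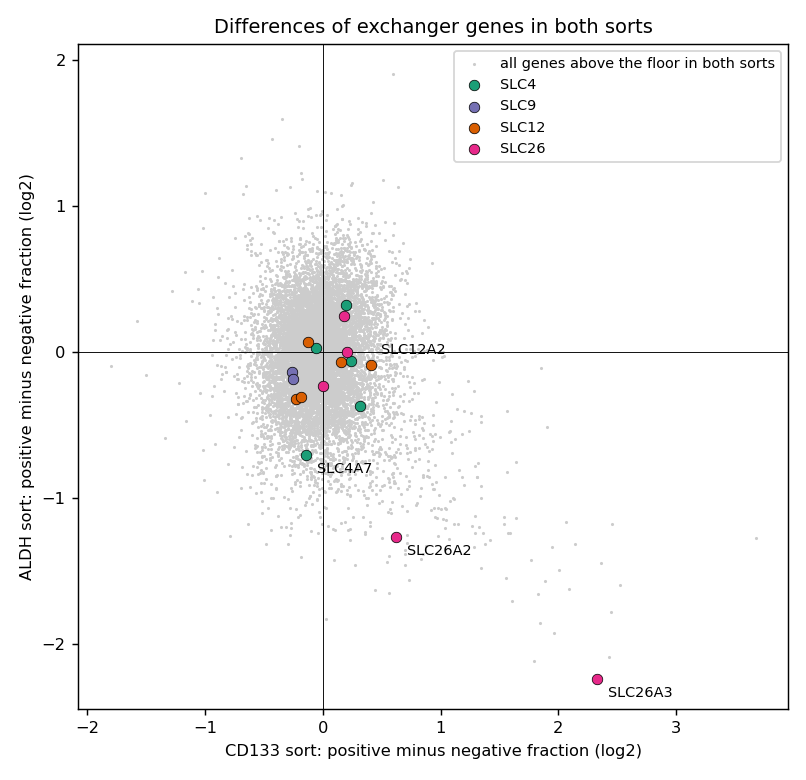
Positive minus negative fraction in the CD133 sort (x axis) and in the ALDH sort (y axis), both log2, for the 17 exchanger genes above the floor in both sorts (coloured by family) and for all 11293 such genes (grey). SLC26A3 (2.33 and -2.24) and SLC26A2 (0.62 and -1.27) lie at the lower right, away from the cloud that holds the other members.

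From low to high, SLC26A3 and SLC26A2 gave the same order of fractions: CD133-, ALDH+, CD133+, ALDH-. SLC12A9 had this order too, within its span of 0.16. The order was singled out after the values were seen. It held for 4.22% of all 12177 genes above the floor on any array and for 23.0% of the 599 genes that spanned 2-fold or more.

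Markers of enterocytes, the absorptive cells of the gut, differed in the same directions as SLC26A3. All 7 measured were higher in CD133+ cells, beside 49% of all genes measured, and 6 were lower in ALDH+ cells, beside 46.1%. The list was chosen with earlier results of these data known, so these counts are a description and not a test. Their mean log2 value was 7.46 in CD133+, 6.0 in CD133-, 6.76 in ALDH+ and 7.93 in ALDH- cells, and 5 of the 6 above the floor (SI, LCT, CDX2, CDH17 and MUC13) had the order of fractions of SLC26A3. FABP2, the fatty acid binding protein of the gut, was under the floor on every array, between 1.85 and 2.45. CDX2, an intestinal transcription factor, was at 8.53 in CD133+, 7.63 in CD133-, 7.90 in ALDH+ and 8.58 in ALDH- cells. TTR, the hepatocyte marker, had the order of SLC26A3 too. The part of these markers in the SLC26A3 and SLC26A2 differences was not tested.

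Bile duct markers were also higher in CD133+ cells, 6 of 6, with means of 6.29 against 5.70, and 3 of 6 were lower in ALDH+ cells, with means of 6.14 against 6.10. CFTR, AQP1 and KRT7 were under the floor on every array, and the level means of the ALDH sort include AQP1 (0.93) and KRT7 (0.56) among these dim probes. Of the 3 bile duct markers above the floor, EPCAM had differences of 1.10 (CD133) and -1.003 (ALDH), KRT19 by 1.34 and -0.44, and SOX9 by 0.14 and 0.28, so 2 of 3 had the directions of SLC26A3 in both sorts. KRT19 also had its order of fractions. Leukocyte markers were lower in CD133+ cells for 3 of 4, beside 50.9% of all genes measured, with means of 4.92 against 5.14. They were higher in ALDH+ cells for 4 of 4, beside 53.8%, with means of 5.19 against 4.73. LYZ and CD14 were above the floor on every array. LYZ differed by -0.69 (CD133) and 1.33 (ALDH), past 2-fold in the ALDH sort, and CD14 by -0.29 and 0.42. CD3E and the pan-leukocyte PTPRC were under the floor on every array, PTPRC between 2.45 and 2.64. Means over fibroblast and stellate markers lay between 4.79 and 4.92, with 3 of 5 higher in CD133+ cells and 2 of 5 lower in ALDH+ cells. Means over endothelial markers lay between 3.86 and 4.35, with 5 of 5 higher in CD133+ and 3 of 5 lower in ALDH+ cells, which are the directions of SLC26A3, though none of them was above the floor in the CD133 sort. PECAM1 and CDH5, the 2 endothelial markers above the floor in the ALDH sort, were above it in ALDH- cells alone and differed by -0.93 and -0.67, or by -0.48 and -0.38 with ALDH+ cells raised to the floor. The part of these lists in the exchanger values was not tested.

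Among the genes that work beside the exchangers, CA4 and FXYD3 were opposite in the sorts at 1.5-fold, in the directions of SLC26A3. Carbonic anhydrases make bicarbonate and protons from carbon dioxide; 6 of 12 measured were above the floor in each sort. CA4, the membrane-bound form at the surface of gut, kidney and lung epithelium, was at 6.72 in CD133+, 5.54 in CD133-, 6.32 in ALDH+ and 7.17 in ALDH- cells. It was higher in CD133+ cells by 1.18 and lower in ALDH+ cells (-0.86), with the order of fractions of SLC26A3. CA4 was the 1 carbonic anhydrase of the 6 that was 1.5-fold higher in CD133+ cells, beside 2.74% of all genes. It was also the 1 that was 1.5-fold lower in ALDH+ cells, beside 6.6%. CA7, a cytosolic form, was at 5.26 in ALDH+ cells and under the floor in ALDH- cells, a difference of 0.71, or of 0.28 with ALDH- cells raised to the floor, short of 1.5-fold. The other 4 carbonic anhydrases above the floor in the ALDH sort were lower in ALDH+ cells, with differences between -0.43 and -0.23, short of 1.5-fold.

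Regulators of the exchangers include the kinase STK39 (SPAK), which phosphorylates SLC12 cotransporters under the control of WNK kinases, and CAB39 (MO25), its activating partner. Of 14 regulators and scaffolds above the floor in the ALDH sort, 2 were at least 1.5-fold lower in ALDH+ cells and none was higher, beside 6.6% and 4.15% of all genes. STK39 was at 7.58 in CD133+, 7.18 in CD133-, 7.22 in ALDH+ and 8.12 in ALDH- cells, a difference of -0.90 in the ALDH sort. CAB39 was at 8.44 in CD133+, 8.19 in CD133-, 7.95 in ALDH+ and 8.69 in ALDH- cells, a difference of -0.74. Both were highest in ALDH- cells. In the CD133 sort none of 13 reached 1.5-fold, and STK39 differed most, by 0.40. The scaffold NHERF1, which holds SLC9A3 and SLC26A3 at the apical membrane, differed by -0.13 and -0.26.

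The sodium pump and lactate carrier list held FXYD3, a small protein that modulates the pump. FXYD3 was at 7.33 in CD133+, 6.26 in CD133-, 7.53 in ALDH+ and 8.81 in ALDH- cells, with differences of 1.08 between the CD133 fractions and -1.28 between the ALDH fractions. It was the 1 gene at 2-fold among 7 of this list above the floor in the CD133 sort, beside 0.716% of all genes higher, and among 10 in the ALDH sort, beside 1.3% lower. ATP1B2, a pump subunit, was higher in ALDH+ cells by 0.91, at 5.81 against a value under the floor, or by 0.83 with that value raised to the floor.

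In the proton pump and chloride channel lists, counts at 1.5-fold were no higher than the share over all genes, 6.6% lower and 4.15% higher in ALDH+ cells. Of 19 proton pump genes above the floor in the ALDH sort, ATP6V1C1, a subunit of the vacuolar pump, was lower at 1.5-fold in ALDH+ cells (-0.59). Of 18 chloride channel genes, LRRC8B, a subunit of the volume-regulated anion channel, was at 5.12 in ALDH- cells and under the floor in the other fractions, a difference of -0.76, or of -0.14 with ALDH+ cells raised to the floor, short of 1.5-fold. In the CD133 sort none of 18 proton pump genes and none of 17 chloride channel genes above the floor reached 1.5-fold; ATP6V0C (0.35) and LRRC8D (-0.35) differed most. The chloride channel CFTR, which works with SLC26A3 and SLC26A6 in bicarbonate secretion, was under the floor on every array, between 3.0 and 3.77.

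**Figure D5:**
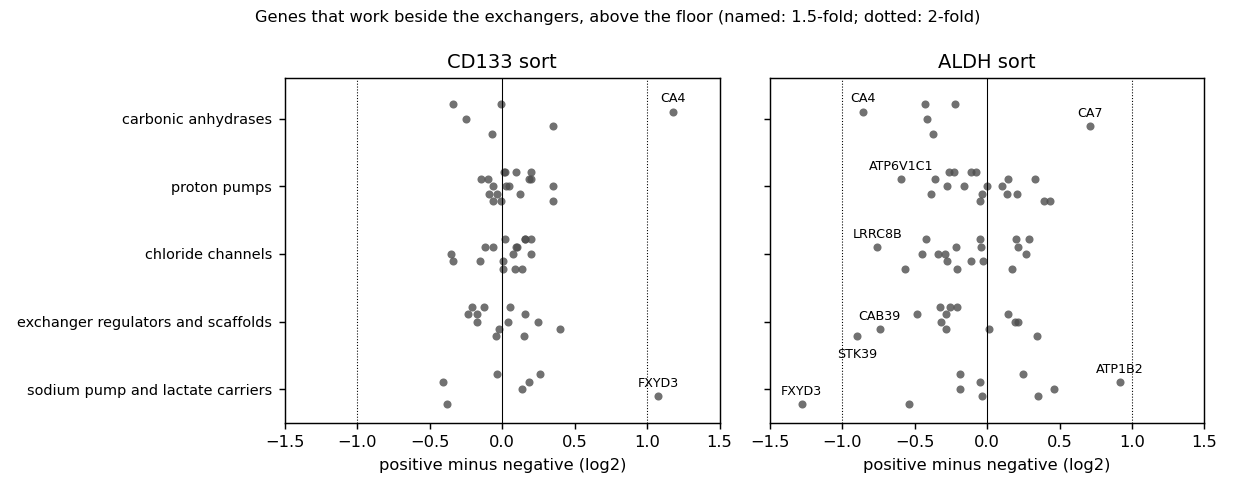
Positive minus negative fraction on the log2 scale (x axis) for genes above the floor in 5 lists of proteins that work beside the exchangers (rows), in the CD133 sort (left) and the ALDH sort (right); names mark genes at 1.5-fold and dotted lines mark 2-fold. CA4 (1.18 and -0.86) and FXYD3 (1.08 and -1.28) are named in both panels, on opposite sides.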

How the data were processed

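RNA of 4 sorted fractions of Huh7 was extracted with Trizol, labelled with biotin and measured on 1 Affymetrix array each, as the labels' protocols state. The authors deposited log2 values made with RMA, per the submitters' processing notes, and their range of 0.556 to 13.5 fits that scale. Which software and genome build were used, and whether anything was done after RMA, is not given in the sources used here. RMA brings the arrays to similar, though here not identical, distributions (medians of 4.92 to 5.04, highest values of 13.1 to 13.5). It also compresses dim probes, so shared shifts are largely hidden and dim genes understated. With 1 array per fraction, precision is limited by the number of arrays.

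Of 28869 probes, 19310 had exactly 1 symbol, 1752 had several and 7807 were not listed in the platform annotation. The probe with the highest mean stood for a gene; SLC9B1 alone of the 37 members had 2 probes. All 37 symbols matched RefSeq (GRCh38.p14) by gene identifier. Members and lists were chosen with earlier results of these data known. Genes were counted at 2-fold and 1.5-fold with no test. Values on all 4 arrays are given for members above the floor at 1.5-fold and for those with the highest mean or the largest difference in their family; for other members they are given where they help. List genes named are those at 1.5-fold above the floor, or else the one that differed most; NHERF1, CFTR, CDX2 and marker genes were added for their roles after their values were seen. Python 3.11.15, pandas 2.3.3, numpy 2.4.6, statsmodels 0.14.6 and matplotlib 3.10.9 were used.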

Additional observations from a re-analysis of the deposited data

Results flagged for a closer look

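Both SLC26A3 and SLC26A2 differed in opposite directions in the sorts, at 1.5-fold or more in each. SLC26A3 differed by 2.33 in the CD133 sort and by -2.24 in the ALDH sort, and SLC26A2 by 0.62 and -1.27. With 1 array per fraction the difference between the sorts was not tested, and the sign in the ALDH sort depends on labels that no transcript here checks.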

How the results depend on the processing

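Across values raised to the floor, the mean over probes, the lowest-mean probe, centred pairs, a second quantile normalization and loess (span 0.4), SLC26A3 differed by 1.5 to 2.33 in the CD133 sort, the low end being the value against the floor, and by -2.31 to -2.21 in the ALDH sort. SLC26A2 differed by 0.61 to 0.65 and by -1.29 to -1.24, and SLC4A7 by -0.74 to -0.70 in the ALDH sort. Of 20 differences of 10 named members, 17 kept their sign under all 6 settings. The exceptions were SLC26A6 and SLC9A3 in the CD133 sort and SLC4A2 in the ALDH sort. The mean over probes and the lowest-mean probe could not change these differences, since no named member had several probes. Raising values to the floor could not reverse a sign, and it took SLC9A3 in the CD133 sort to 0.00. With 1.5-fold in place of 2-fold, the count in the CD133 sort was 2. With a floor at the 75th percentile (6.48) it was 0 and the count of members opposite in the sorts was 0, since both CD133 arrays of SLC26A3 and of SLC26A2 lie under that floor, that of SLC26A3 in CD133+ cells only just. The member median of the CD133 sort was -0.0002 over the 7 members above that floor, 0.00 with values raised to the floor, 0.069 after the second quantile normalization and 0.062 after loess. That of the ALDH sort was -0.27 over 10 members, 0.00, -0.023 and -0.0355 under the same settings, 0.0066 with the lowest-mean probe and -0.031 with centred pairs. In recalculations added after the data were seen it was -0.11 over the members above the floor and 0.0066 over the 35 members measured other than SLC26A2 and SLC26A3. The same recalculations gave 0.16 and 0.10 in the CD133 sort. No paired analysis was possible because each group has 1 array and the labels give no replicate numbers; for the same reason no array could be left out.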

Other observations

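SLC9B1 was read by 2 probes, both under the floor on every array, and they disagreed: the brighter gave differences of 0.21 (CD133) and -0.62 (ALDH), the dimmer -0.70 and 0.02. Among the list genes under the floor on every array, ATP6V0D2 (-1.01) and CLIC5 (-1.09) differed by 2-fold in the ALDH sort. Both were lower in ALDH+ cells. ATP6V0D2 is a vacuolar pump subunit and CLIC5 an intracellular chloride channel protein. Dim genes outside the lists passed 2-fold too. Of all genes measured, 178 were 2-fold lower and 79 higher in ALDH+ cells, against 154 and 33 of those above the floor. Of the 18 members above the floor on any array, 9 were highest in ALDH- cells, beside 24.2% of all such genes, and 9 were lowest in CD133- cells, beside 21.1%.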
